A study of Mus musculus with 8 samples.

Results

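Dbp, Tef and Hlf encode the proline- and acidic-amino-acid-rich (PAR) basic leucine zipper (bZIP) transcription factors, and Nfil3 (also called E4bp4) encodes a related bZIP repressor. The PAR bZIP factors activate genes through a DNA element called the D-box, and NFIL3 binds the same element and represses, so that both kinds of factor meet at shared targets. Transcription of Dbp and Tef is driven by BMAL1, the product of Arntl, together with CLOCK or NPAS2 at E-boxes. Nfil3 is driven by the ROR receptors and repressed by REV-ERB alpha and beta (Nr1d1 and Nr1d2) at ROR response elements, which places its transcript at another time of day than that of the PAR factors. In liver and kidney the PAR factors are best known as regulators of genes for xenobiotic and drug handling. The members described here are the 4 rows of the gene table with the symbols Dbp, Tef, Hlf and Nfil3, of 32285 features in all, 21286 of them mRNAs. They were chosen by name, with earlier results of these data known.

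The measurement was single-nucleus RNA-seq of mouse kidney, in which each captured transcript is counted once through its unique molecular identifier (UMI). Of the 8 libraries, 2 came from each combination of genotype and time point. Bmal1lox/lox mice (Ctrl) were compared with littermates that also carried Pax8-rtTA and LC-1 Cre (cKOt), in which doxycycline switches on Cre in the renal tubule, so that the vascular, stromal, podocyte and immune cells of cKOt kidneys keep an intact Bmal1 gene by design. All were males on a C57BL/6J background, kept in 12 h of light and 12 h of darkness and fed a standard chow, and all, Ctrl included, drank doxycycline at 2 mg/ml with sucrose for 2 weeks from 8 weeks of age. Kidneys were taken at 14 weeks, at zeitgeber time (ZT) 4, that is 4 h after lights on, or at ZT16, that is 4 h after lights off. The questions these groups address for the members are how their transcripts differ between the light and the dark phase, how they differ when the tubule lacks BMAL1, and in which cells.

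After filtering, 81391 nuclei with 36548873 to 54500820 UMIs per library were summed per library and per class of nuclei, since nuclei are not replicates, and 823 barcodes occurred in more than 1 library. Levels are given as CPM, the counts of such a sum scaled to 1000000 mRNA UMIs after edgeR's TMM scaling, changes are on the log2 scale with their standard error (SE), and a change is called at an edgeR adjusted p under 0.05. Clusters were named from marker genes, and each name stands for nuclei like that type. Of the named classes, 20 had enough nuclei in every library to be compared. The markers of the proximal convoluted tubule (PCT) were also counted in classes outside the proximal tubule, at 2.46% to 12.4% of their summed level in PCT. Fewer nuclei of a type and less RNA per nucleus cannot be told apart in a sum over the whole kidney. Arntl is counted over the whole gene, so its level tests neither the deletion nor the labels. Arntl lay at 38.3 and 33.1 CPM in Ctrl at ZT4, 154 and 159 in Ctrl at ZT16, 296 and 201 in cKOt at ZT4 and 296 and 266 in cKOt at ZT16, and its libraries in cKOt were the highest.

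On GRCm39, Dbp lies at chr7:45354512-45359627 on the plus strand, Tef at chr15:81686622-81711064 on the plus strand, Hlf at chr11:90227221-90281761 on the minus strand and Nfil3 at chr13:53121245-53137010 on the minus strand. Opposite-strand neighbours overlap Dbp (Sphk2, 4260 UMIs), Tef (Gm17597, 736 UMIs, and Gm62935 and Gm62928, not analysed here), Hlf (Mmd, 8837 UMIs) and Nfil3 (Gm40950 and Gm61210, not analysed here). Nfil3 is also overlapped on its own strand by Gm61212, not analysed here. The sources used here do not say whether counting used the strand, so the counts of the members may hold some reads of their neighbours. The 8 libraries together held 2811 UMIs of Dbp, 57669 of Tef, 50361 of Hlf and 4534 of Nfil3, so that the values of Dbp and Nfil3 are the least precise in small classes.

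The 250 bases before each RefSeq start of the members (GRCm38.p6) were searched on both strands for the elements through which the clock reaches these genes. The letters were CACGTG for the E-box, CACGTT for the E'-box, TTATGTAA or TTACGTAA for the D-box and TAGGTCA or TGGGTCA for the core of a ROR response element. Among 32851 promoters of this length, 6.02% held the E-box, 3.85% the E'-box, 0.931% the D-box and 5.38% the ROR core. Both starts of Tef had an E-box in the window, and Nfil3 had a ROR core, TGACCTA when read on the gene's strand. These windows are shown because they hold the letters matched, which are in capitals. They are chr15:81802423-81802672 (plus strand) and chr15:81811164-81811413 (plus strand) for Tef and chr13:52981040-52981289 (minus strand) for Nfil3.
Tef, first start: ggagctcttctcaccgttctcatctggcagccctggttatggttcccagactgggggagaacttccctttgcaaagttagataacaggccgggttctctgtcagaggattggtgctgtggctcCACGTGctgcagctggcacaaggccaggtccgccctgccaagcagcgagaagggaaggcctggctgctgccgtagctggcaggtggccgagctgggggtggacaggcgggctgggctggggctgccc
Tef, second start: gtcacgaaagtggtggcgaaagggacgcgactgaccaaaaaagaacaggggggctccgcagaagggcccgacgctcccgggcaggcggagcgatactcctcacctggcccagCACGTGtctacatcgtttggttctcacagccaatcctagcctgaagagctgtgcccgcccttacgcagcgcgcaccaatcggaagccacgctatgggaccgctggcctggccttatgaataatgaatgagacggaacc
Nfil3: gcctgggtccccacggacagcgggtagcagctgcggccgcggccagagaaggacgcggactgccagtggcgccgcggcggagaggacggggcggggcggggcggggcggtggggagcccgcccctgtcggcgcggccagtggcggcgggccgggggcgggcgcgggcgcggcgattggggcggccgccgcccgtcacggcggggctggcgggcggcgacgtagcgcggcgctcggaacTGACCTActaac
The E-box lies 127 to 122 bases before the first Tef start and 138 to 133 bases before the second, and the ROR core lies 12 to 6 bases before the Nfil3 start. The windows of Dbp (chr7:45704997-45705246, plus strand) and Hlf (chr11:90390918-90391167, minus strand) held none of these letters, which says nothing of elements elsewhere in the genes. A match is a description of the letters and not of a bound site.

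In sums over the whole kidney, Dbp was high in Ctrl at ZT4 and low in the other groups, and Nfil3 had the opposite pattern. Dbp was measured at 32.1 and 24.7 CPM in Ctrl at ZT4, 2.90 and 2.13 in Ctrl at ZT16, 3.61 and 6.76 in cKOt at ZT4 and 2.04 and 2.17 in cKOt at ZT16. Both Ctrl ZT4 libraries lay above all the others, and the cKOt ZT4 libraries lay between them and the 4 ZT16 libraries. From ZT4 to ZT16 in Ctrl, Dbp fell by 3.49 on the log2 scale (SE 0.31), to a level 11.2-fold lower (edgeR adjusted p = 0.00406). It was the 1 member of 4 called in this contrast, in which 23 of 16165 mRNAs were called (0.142%). Without replicate 2 of Ctrl ZT16 the adjusted p of edgeR was 0.0521.

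Dbp also differed by genotype at ZT4, where it was 5.45-fold lower in cKOt than in Ctrl (log2 -2.45, SE 0.30, edgeR adjusted p = 0.0117). With Nfil3, this made 2 of 4 members called in a contrast with 72 of 16145 mRNAs called (0.446%). Without replicate 1 of Ctrl ZT4 the adjusted p of Dbp was 0.0633 by edgeR. At ZT16, where Dbp was low in both genotypes, the difference of cKOt from Ctrl was -0.27 (SE 0.32, edgeR adjusted p = 0.999). Within cKOt the change from ZT4 to ZT16 was -1.31 (SE 0.31, edgeR adjusted p = 0.273), and the difference between the time changes of the genotypes was 2.18 (SE 0.43, edgeR adjusted p = 0.458), so a difference in the time change was not called.

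Tef, named for the thyrotroph cells of the pituitary in which it was found, was measured in the whole kidney at 274 and 278 CPM in Ctrl at ZT4, 199 and 165 in Ctrl at ZT16, 129 and 172 in cKOt at ZT4 and 125 and 138 in cKOt at ZT16. The Ctrl ZT4 libraries were again the highest and overlapped with no other group, while the cKOt ZT4 and cKOt ZT16 libraries overlapped. The time change in Ctrl was -0.60 (SE 0.16, edgeR adjusted p = 0.251) and the genotype difference at ZT4 was -0.88 (SE 0.16, edgeR adjusted p = 0.0727), and neither was called. The genotype difference was called without replicate 2 of cKOt ZT4, at log2 -1.10 and an edgeR adjusted p of 0.0441. Hlf, whose product forms dimers with the other PAR factors, showed no called change. Its levels were 166 and 162 CPM in Ctrl at ZT4, 177 and 111 in Ctrl at ZT16, 169 and 184 in cKOt at ZT4 and 165 and 145 in cKOt at ZT16. The cKOt ZT4 libraries lay just above those of Ctrl at ZT4 and cKOt at ZT16, and the other groups overlapped. The log2 change of Hlf from ZT4 to ZT16 in Ctrl was -0.18 with an SE of 0.20, and its genotype difference at ZT4 was 0.11 with an SE of 0.20.

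Nfil3, the repressor, was measured at 2.53 and 1.85 CPM in Ctrl at ZT4, 7.81 and 20.8 in Ctrl at ZT16, 28.02 and 12.4 in cKOt at ZT4 and 20.8 and 23.1 in cKOt at ZT16. It was low in both Ctrl ZT4 libraries, and the 6 other libraries lay above them. The cKOt ZT4 libraries overlapped both ZT16 groups, and the cKOt ZT16 libraries lay above those of Ctrl at ZT16, the lower of them by a margin within rounding. The spread was wide within pairs, with 369 and 759 UMIs in the Ctrl ZT16 libraries and 969 and 520 in the cKOt ZT4 libraries. At ZT4 Nfil3 was 9.28-fold higher in cKOt (log2 3.21, SE 0.53, edgeR adjusted p = 0.0476). That call was lost without either Ctrl ZT4 library, replicate 1 of cKOt ZT4 or either cKOt ZT16 library, with adjusted p of edgeR between 0.0805 and 0.322, and with the size factors of DESeq2 (0.0501). Without single libraries its log2 value ranged from 2.51 to 3.69. The time change of Nfil3 in Ctrl was 2.71 (SE 0.52, edgeR adjusted p = 0.131), which was not called, and in cKOt it was 0.12 (SE 0.46, edgeR adjusted p = 0.983).

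None of the 4 members was called between time points in cKOt by edgeR, where 0 of 16069 mRNAs were called (0%). In that contrast 1 member had an unadjusted p of edgeR under 0.05, as had 1337 of the 16069 mRNAs, and DESeq2 called 1, Dbp. Nor was any member called by edgeR between genotypes at ZT16 (0.174% of mRNAs called), with 1 at an unadjusted p under 0.05 and 0 called by DESeq2, or in the interaction (0.0183% of mRNAs called), with 2 and 1. Of all mRNAs, 982 of 16094 at ZT16 and 711 of 16351 in the interaction had such an unadjusted p.

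**Figure D1:**
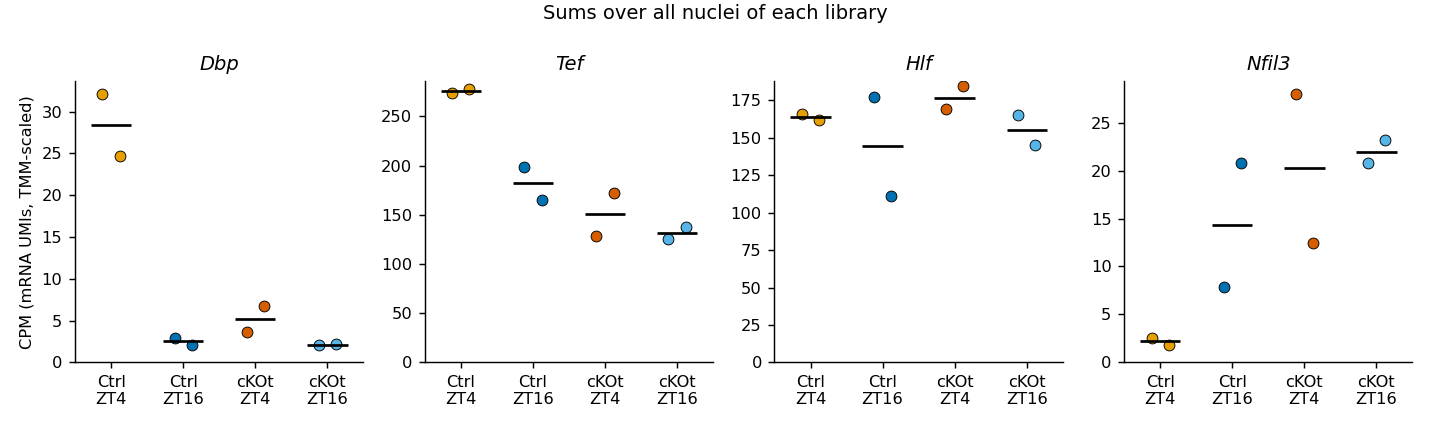
Level of Dbp, Tef, Hlf and Nfil3 in sums over all nuclei of each library, in CPM on a linear axis, with 1 point for each of the 2 libraries of a group and a bar at their mean. Dbp stands high in Ctrl at ZT4 alone, Nfil3 stands low there, Tef is highest there and the groups of Hlf lie close together.

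The tubule, where the transgenes drive Cre, was then compared with the cells in which they do not. Counts were summed over 13 named types of the tubule and over 7 types of vascular, stromal, podocyte and immune nuclei, called other cells. Dbp in the tubule was measured at 34.1 and 25.6 CPM in Ctrl at ZT4, 2.62 and 1.82 in Ctrl at ZT16, 2.06 and 3.25 in cKOt at ZT4 and 1.68 and 1.61 in cKOt at ZT16. Those of Ctrl at ZT4 stood far above the rest, the cKOt ZT4 libraries overlapped those of Ctrl at ZT16, and the cKOt ZT16 libraries lay just below them. In other cells Dbp was measured at 23.03 and 20.5 CPM in Ctrl at ZT4, 4.98 and 3.67 in Ctrl at ZT16, 10.98 and 21.6 in cKOt at ZT4 and 3.44 and 5.03 in cKOt at ZT16. There the cKOt ZT4 libraries were spread over a range that reached the Ctrl ZT4 level, and all 4 ZT4 libraries lay above all 4 ZT16 libraries.

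In the tubule, Dbp fell by 3.74 on the log2 scale from ZT4 to ZT16 in Ctrl (SE 0.29, edgeR adjusted p = 0.00129, with 0.136% of mRNAs called), and by genotype at ZT4 it was 11.2-fold lower in cKOt (edgeR adjusted p = 0.00101, with 0.441% called). In other cells it fell by 2.31 with time in Ctrl (SE 0.33, edgeR adjusted p = 0.0359, with 0.069% of mRNAs called), while the genotype difference at ZT4 was -0.39 (SE 0.29, edgeR adjusted p = 0.93, with 0.104% called). In cKOt the time change of Dbp was -1.96 (SE 0.34, edgeR adjusted p = 0.0629, with 0.0842% of mRNAs called) in other cells and -0.69 (SE 0.30, edgeR adjusted p = 0.676, with 0% called) in the tubule. The genotype difference at ZT4 was itself compared between the compartments in 1 model with the library as a block, and it was 3.03 lower on the log2 scale in the tubule (SE 0.22, edgeR adjusted p = 8.11e-05). This kind of difference was called for 40 of 15735 mRNAs (0.254%), of which Dbp was the 1 member, and the call held with each library left out. All 6 PCT markers were counted in other cells of every library, at a summed level of 479 to 507 CPM in Ctrl at ZT4, 320.4 to 369 in Ctrl at ZT16, 472 to 524 in cKOt at ZT4 and 447 to 513 in cKOt at ZT16, that is 5.48% to 7.30% of their PCT level. Dbp of other cells in cKOt at ZT4 lay above its level in PCT there (1.41 and 3.38 CPM). The level in other cells relative to the tubule differed between genes. In Ctrl at ZT4, Cyp2a4, a cytochrome P450 gene, lay at 21.2 and 18.2 CPM in other cells and 30.8 and 29.5 in the tubule. Ddc lay at 7.18 and 7.97 against 51.4 and 56.2. In cKOt at ZT4, Cyp2a4 lay at 0.757 and 2.49 against 3.04 and 3.25. The part of proximal RNA in the Dbp counts of other cells was not tested.

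Summed over each compartment, Tef took different courses in the 2 compartments of Ctrl kidneys, but neither was uniform. Among other cells Tef was higher at ZT16 in mesangial cells and pericytes (1.88-fold), smooth muscle (1.48) and podocytes (1.34). It was lower in T and natural killer cells (1.56-fold), endothelium (1.53) and myeloid cells (1.31). Among tubule classes Tef was higher in the distal convoluted (1.61-fold) and connecting tubule (1.09) and lower in the others. In the tubule it was measured at 319 and 337 CPM in Ctrl at ZT4, 219.99 and 183 in Ctrl at ZT16, 136 and 194 in cKOt at ZT4 and 128 and 146 in cKOt at ZT16. Both libraries of Ctrl at ZT4 were above the rest. In other cells it was measured at 109 and 107 CPM in Ctrl at ZT4, 139.6 and 131 in Ctrl at ZT16, 96.3 and 95.2 in cKOt at ZT4 and 121 and 119 in cKOt at ZT16, and the 4 ZT16 libraries lay above the 4 ZT4 libraries. The time change of Tef in Ctrl was -0.70 (SE 0.18, edgeR adjusted p = 0.242) in the tubule and 0.33 (SE 0.11, edgeR adjusted p = 0.394) in other cells, neither of which was called. Their difference was called, the tubule being 1.02 lower on the log2 scale (SE 0.16, edgeR adjusted p = 0.0413, with 26 of 15789 mRNAs called, 0.165%). It was lost with the size factors of DESeq2 (edgeR adjusted p = 0.0642) and with 50 principal components (0.0624). It was also lost without any of the 4 Ctrl libraries or either cKOt ZT16 library, with adjusted p of edgeR between 0.0715 and 0.295 and log2 values from -1.11 to -0.94.

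Between genotypes at ZT4 the difference of Tef was -0.99 (SE 0.18, edgeR adjusted p = 0.0809) in the tubule and -0.17 (SE 0.11, edgeR adjusted p = 0.893) in other cells. The difference between these was -0.82 (SE 0.17, edgeR adjusted p = 0.104), and it was called without replicate 2 of cKOt ZT4 (log2 -1.11, edgeR adjusted p = 0.0178).

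Nfil3 was measured in the tubule at 2.79 and 1.70 CPM in Ctrl at ZT4, 8.27 and 24.8 in Ctrl at ZT16, 32.4 and 14.4 in cKOt at ZT4 and 23.6 and 28.03 in cKOt at ZT16, and in other cells at 1.84 and 2.62 CPM in Ctrl at ZT4, 7.22 and 8.67 in Ctrl at ZT16, 8.52 and 3.51 in cKOt at ZT4 and 7.32 and 6.40 in cKOt at ZT16. In both compartments the Ctrl ZT4 libraries were the lowest and apart from the rest. Between genotypes at ZT4 Nfil3 differed by 3.39 (SE 0.59, edgeR adjusted p = 0.0638) in the tubule and by 1.35 (SE 0.43, edgeR adjusted p = 0.471) in other cells, and between time points in Ctrl by 2.89 (SE 0.58, edgeR adjusted p = 0.154) and 1.79 (SE 0.41, edgeR adjusted p = 0.181). None of these was called, nor was the difference between the compartments at ZT4 (2.08, SE 0.57, edgeR adjusted p = 0.311). The part of proximal RNA in the Nfil3 counts of other cells was not tested. No member was called between the compartments over time in cKOt (0.00637% of mRNAs called), by genotype at ZT16 (0.133%) or in the interaction (0.0313%) by edgeR, with 2, 2 and 1 members at an unadjusted p under 0.05 and 0, 0 and 1 called by DESeq2. Of all mRNAs, 1253 of 15700, 1058 of 15731 and 840 of 15977 had such an unadjusted p in these contrasts. Hlf showed no called change in either compartment, with a genotype difference at ZT4 of 0.05 (SE 0.21) in the tubule and 0.35 (SE 0.15) in other cells.

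**Figure D2:**
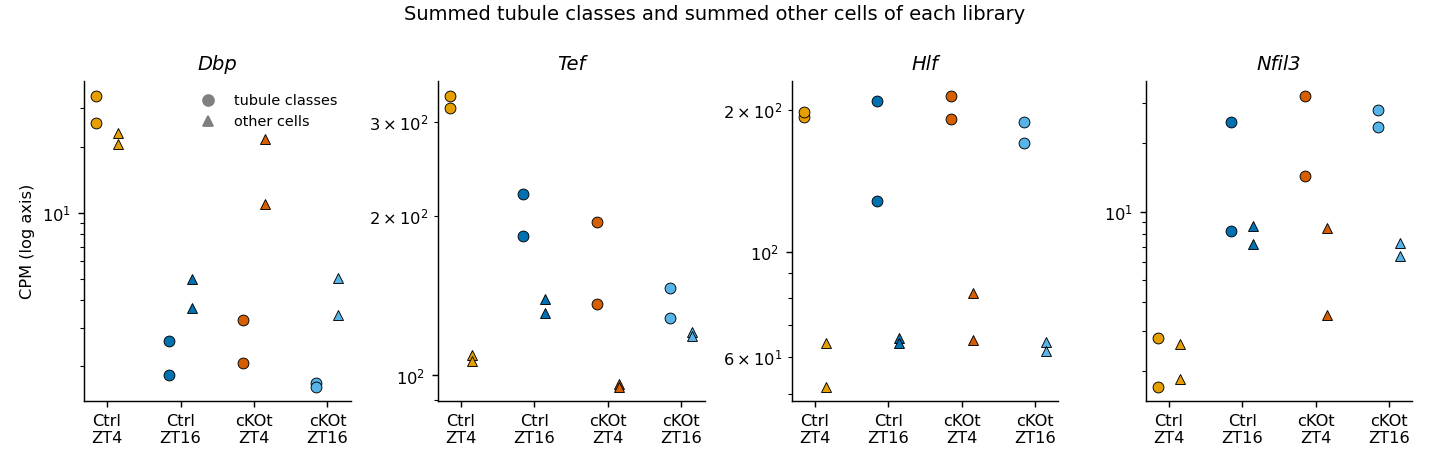
Level of the 4 members in the tubule (circles) and in other cells (triangles) of each library, in CPM on a log axis, by group. In cKOt at ZT4, Dbp lies at 2.06 and 3.25 CPM in the tubule and at 10.98 and 21.6 CPM in other cells, and Tef in other cells lies higher at ZT16 than at ZT4 in both genotypes.

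Levels across classes are given as the mean and SD over the 4 Ctrl libraries, 2 at each time point, so that the SD holds the change with time, and they were not tested. The tubule classes run from the proximal convoluted and straight tubule (PCT, PST) over the thin limbs (thinDL, thinAL), the thick ascending limb (TAL), the macula densa (MD), the distal convoluted tubule (DCT1/DCT2) and the connecting tubule (CNT) to the principal cells of the cortical and medullary collecting duct (CCD, MCD) and the intercalated cells (aIC, bIC). PCT/PST stands for 2 clusters that carried 3 of the 4 PST markers without the fourth, Cyp7b1, with PCT markers at 7.66% to 13.9% of their PCT level, against 6.14% to 18.8% in PST. Fewer than 3 PCT markers were raised in them, so the name marks the missing PST marker and not a PCT identity. The rest are urothelium (UT), endothelium (Vasc), mesangial cells and pericytes (Mes/Per), smooth muscle and juxtaglomerular cells (SMC/JGC), podocytes (Podo), myeloid cells (Myel) and T and natural killer cells (TC/NK).

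Tef was detected in every class, and its CPM was highest in the proximal tubule, at 403 ± 121 in PCT/PST, 401 ± 43.7 in PST and 323 ± 117 in PCT. Next came 206 ± 104 in thinDL, 189 ± 36.9 in Podo, 173 ± 61.3 in Mes/Per, 156 ± 14.9 in CNT and 140.3 ± 70.6 in TAL. They were followed by 132 ± 45.1 in SMC/JGC, 129.996 ± 47.02 in MD, 120.01 ± 18.5 in CCD, 118 ± 34.5 in DCT1/DCT2, 107 ± 13.9 in bIC and 107 ± 28.5 in aIC. The lowest levels were 84.4 ± 11.6 in UT, 83.8 ± 20.4 in Vasc, 82.6 ± 16.7 in thinAL, 80.1 ± 18.7 in Myel, 67.4 ± 14.8 in MCD and 61.4 ± 28.3 in TC/NK. No neighbours in this order lay apart.

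Hlf was highest in the proximal tubule as well. Its CPM was 321 ± 46.9 in PCT and 305 ± 63.4 in PCT/PST, and PST followed at 177 ± 42.3, with libraries that did not overlap those of PCT/PST, the 1 pair of neighbours apart among 19. Below them lay 114 ± 83.8 in SMC/JGC, 80.9 ± 26.6 in Mes/Per, 73.6 ± 22.7 in thinDL, 73.2 ± 20.7 in TC/NK, 49.9 ± 8.95 in Vasc and 43.4 ± 19.9 in DCT1/DCT2. The other 11 classes, among them every distal and collecting duct class but DCT1/DCT2, lay lower still, at 37.1 ± 16.9 in MD, 31.9 ± 5.73 in TAL, 31.7 ± 9.22 in Podo, 30.6 ± 6.91 in CNT, 30.2 ± 21.2 in thinAL, 29.6 ± 12.3 in Myel, 28.7 ± 9.01 in UT, 28.4 ± 12.7 in MCD, 27.6 ± 13.8 in CCD, 25.8 ± 17.6 in bIC and 25.0 ± 9.41 in aIC. Hlf lay at 8.65% to 11.7% of its PCT level in TAL and 6.49% to 11.3% in UT, above the share of PCT markers in the same classes (3.58% to 4.67% and 2.56% to 5.25%). In aIC, at 4.78% to 10.99% against 6.88% to 9.47%, and in CNT, at 7.24% to 11.8% against 3.91% to 7.52%, the ranges over all libraries overlapped. In CNT the marker share reached the lowest share of Hlf only in cKOt at ZT16 (6.17% to 7.52%). PCT markers were low in PCT/PST and PST, where Hlf was also high, so their share does not measure all proximal RNA. The part of proximal RNA in the Hlf counts of these classes was not tested.

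Nfil3 also had its highest means in the proximal classes, at 14.2 ± 18.3 in PCT, 13.1 ± 17.7 in PCT/PST and 8.83 ± 8.09 in PST. It followed at 8.72 ± 10.4 in TC/NK, 7.59 ± 5.39 in DCT1/DCT2, 6.55 ± 6.87 in TAL, 6.16 ± 4.35 in Vasc, 5.70 ± 2.89 in MCD, 4.82 ± 4.34 in thinAL and 4.61 ± 2.94 in Mes/Per, and at 4.41 ± 6.25 in thinDL, 4.33 ± 5.28 in UT, 3.01 ± 3.54 in SMC/JGC, 2.96 ± 3.07 in CNT and 2.21 ± 4.41 in Podo. In TC/NK the Ctrl libraries together held 5 UMIs, in thinDL 4 and in SMC/JGC and Podo 2 each. In CCD, aIC, Myel and bIC they held 2 to 4, and in MD 0, so that the levels of all these classes, also 1.42 ± 1.09 in CCD, 1.14 ± 2.27 in aIC, 0.792 ± 1.58 in Myel and 0.769 ± 0.920 in bIC, rest on almost no counts.

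For Dbp the SD holds a large change with time and few counts. The order began with thinDL at 35.8 ± 49.2 (18 UMIs in 4 libraries) and SMC/JGC at 26.6 ± 24.3 (17 UMIs). It went on with 21.4 ± 20.8 in CCD, 20.6 ± 22.3 in PCT, 17.7 ± 21.5 in Podo, 17.4 ± 17.1 in TAL, 17.1 ± 18.6 in PCT/PST, 16.8 ± 18.2 in aIC, 16.6 ± 15.98 in Vasc, 16.2 ± 16.9 in bIC and 15.04 ± 24.3 in MD. The other classes lay at 12.3 ± 14.04 in CNT, 12.2 ± 10.5 in MCD, 12.1 ± 12.5 in UT, 11.6 ± 11.5 in TC/NK, 9.51 ± 5.49 in DCT1/DCT2, 9.36 ± 3.06 in Mes/Per, 8.81 ± 8.68 in thinAL, 8.71 ± 9.37 in PST and 6.49 ± 7.17 in Myel. No neighbours lay apart in the order of Dbp or of Nfil3. These levels are per gene without length scaling, so that levels of different genes are not compared.

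**Figure D3:**
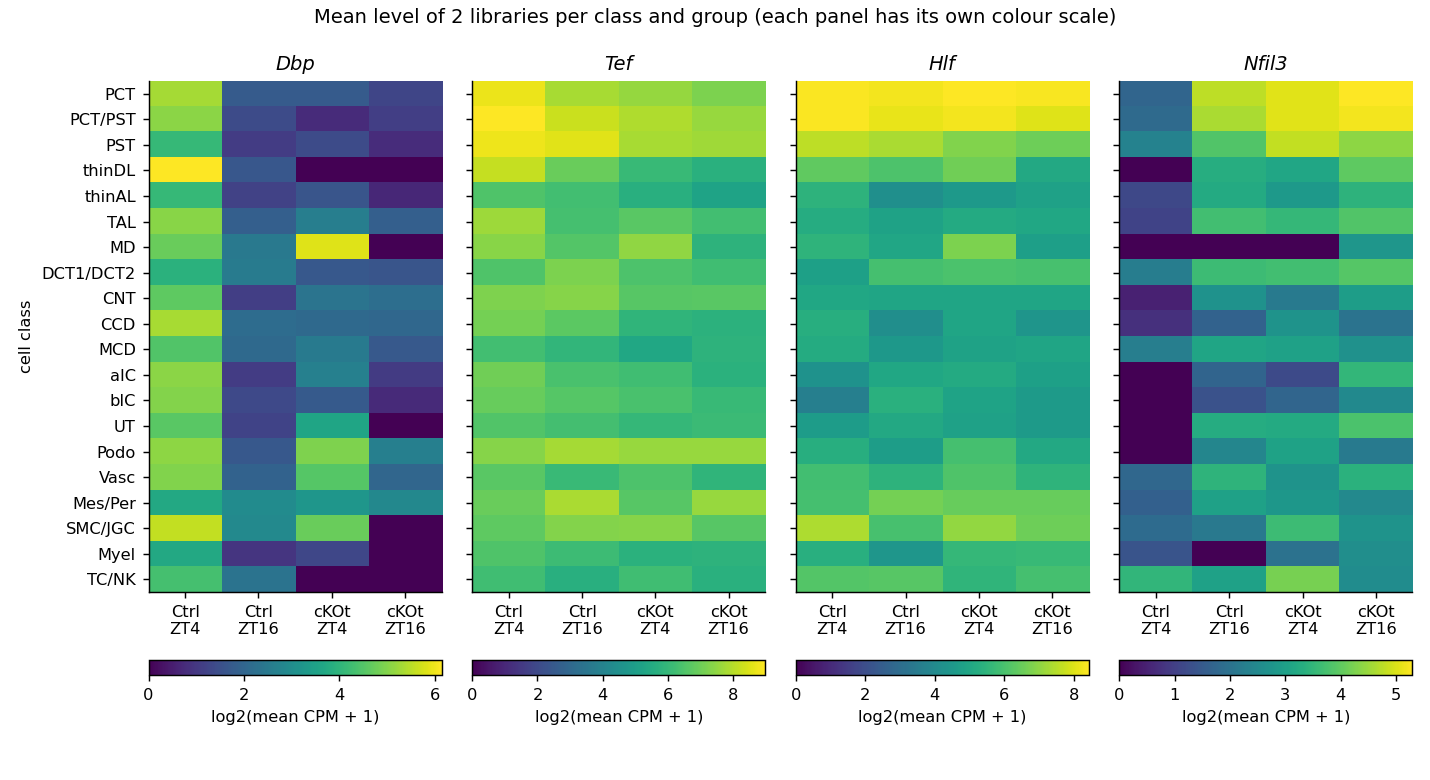
Heatmap of the mean level of each member by class and group, as log2(mean CPM + 1) over the 2 libraries of a group, each panel with its own color scale. Hlf is strongest in PCT and PCT/PST in all 4 groups, Tef is strongest in the proximal classes of Ctrl at ZT4, Dbp is highest in the Ctrl ZT4 column in 19 of 20 classes, and Nfil3 is low in that column in the proximal classes.

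From ZT4 to ZT16 in Ctrl, Dbp was called lower in 8 of the 17 classes with enough counts to test, against 0.168% of all class-by-mRNA tests called lower. Its estimate was below 0 in all 17, and both ZT16 libraries lay below both ZT4 libraries in 19 of 20 classes. The classes share the same libraries, and the share of all mRNAs set apart in this way was not counted. DESeq2 called 5 and did not call CCD, CNT, aIC or bIC. The classes called by edgeR were PCT, PCT/PST, TAL, CNT, CCD, aIC, bIC and Vasc. In PCT Dbp was measured at 47.8 and 29.8 CPM in Ctrl at ZT4, 2.48 and 2.34 in Ctrl at ZT16, 1.41 and 3.38 in cKOt at ZT4 and 1.38 and 1.48 in cKOt at ZT16. Ctrl at ZT4 stood alone, and the log2 change with time was -3.99 (SE 0.39, edgeR adjusted p = 0.00213), a 15.9-fold lower level. In TAL it was measured at 34.1 and 30.3 CPM in Ctrl at ZT4, 3.05 and 2.16 in Ctrl at ZT16, 4.52 and 5.82 in cKOt at ZT4 and 3.64 and 1.63 in cKOt at ZT16, with a log2 change of -3.58 (SE 0.32, edgeR adjusted p = 3.73e-05). The calls in PCT and TAL held with each library left out. A class passes the count filter mainly through the group in which Dbp is high, so the share called describes those classes alone.

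PCT and PCT/PST were held in part by different clusters in the groups, although the members and the other clock genes had been left out of the clustering. In PCT, cluster 2 held 433 and 80 nuclei of the Ctrl ZT4 libraries, 191 and 768 of Ctrl ZT16, 1574 and 449 of cKOt ZT4 and 1399 and 1598 of cKOt ZT16. In the same order of groups, cluster 7 held 898 and 1000, 773 and 207, 37 and 759, and 122 and 98 nuclei, and cluster 5, spread over all groups, held 596 and 448, 857 and 429, 448 and 658, and 376 and 360. In PCT/PST, cluster 11 held 704 and 943, 788 and 917, 3 and 19, and 4 and 1, and cluster 4 held 317 and 38, 30 and 157, 1176 and 876, and 964 and 1067. The values of all members in both classes are over these clusters together.

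The other calls of Dbp over time rested more on single libraries. In PCT/PST Dbp fell by 4.29 on the log2 scale (SE 0.41, edgeR adjusted p = 0.00532), a call lost without replicate 1 of Ctrl ZT4 or either Ctrl ZT16 library (adjusted p of edgeR 0.057 to 0.0854). In CCD, at 40.9 and 37.7 CPM at ZT4 and 5.28 and 1.70 at ZT16, it fell by 3.32 (edgeR adjusted p = 0.00318), a call lost without replicate 2 of Ctrl ZT16 (adjusted p = 0.128). In 3 classes the ZT16 pair held 1 to 3 UMIs, so the change is given as a ratio of counts with its exact 95% interval, which covers counting error only. CNT held 54 UMIs at ZT4 and 3 at ZT16, a depth-scaled ratio of 17.1 (5.53 to 85.3). The ratio was 33.4 (5.53 to 1367) in aIC, with 28 UMIs against 1, and 20.8 (5.34 to 178) in bIC, with 35 against 2. These calls were lost without replicate 2 of either Ctrl group in CNT (adjusted p of edgeR 0.1 to 0.129), without replicate 1 of either Ctrl group in aIC (0.066 to 0.285) and without any Ctrl library or either cKOt ZT16 library in bIC (0.1 to 0.789), where removing doublets also ended the call (0.051).

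By genotype at ZT4, edgeR called Dbp lower in cKOt in 6 of 17 classes tested, each a tubule class, against 0.129% of class-by-mRNA tests called lower. The estimate was below 0 in 16 of the 17, which pass the count filter mainly through Ctrl at ZT4, where Dbp is high, so this count describes those classes alone. DESeq2 called 4 and did not call CCD, DCT1/DCT2 or bIC. It was 15.6-fold lower in PCT (log2 -3.97, SE 0.37, edgeR adjusted p = 0.00108), 6.09-fold lower in TAL (log2 -2.61, edgeR adjusted p = 0.000424) and 45.4-fold lower in PCT/PST (log2 -5.51, edgeR adjusted p = 0.0011), and these 3 calls held with each library left out. In PCT/PST the cKOt ZT4 libraries lay at 0.903 and 0.482 CPM against 38.9 and 26.4 in Ctrl. In the DCT, which reabsorbs sodium through the thiazide-sensitive cotransporter, Dbp was measured at 13.5 and 14.8 CPM in Ctrl at ZT4, 6.23 and 3.52 in Ctrl at ZT16, 1.92 and 2.54 in cKOt at ZT4 and 1.85 and 2.32 in cKOt at ZT16. There its genotype difference at ZT4 was -2.64 (SE 0.48, edgeR adjusted p = 0.0156), a call lost without any 1 of the ZT4 libraries (adjusted p of edgeR 0.0653 to 0.237), with 50 principal components (0.17, where a DCT2 cluster of 1406 nuclei split off and the class kept clusters of 2392 and 21) or without doublets (0.0543), while its time change in Ctrl of -1.50 (SE 0.41) was not called.

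In CCD, 41 UMIs of Dbp in Ctrl at ZT4 stood against 3 in cKOt, a depth-scaled ratio of 11.7 (exact 95% interval 3.73 to 58.9), and in bIC 35 stood against 3, a ratio of 13.3 (4.20 to 67.7). The call in CCD was lost without replicate 2 of Ctrl ZT4 or either cKOt ZT4 library (adjusted p of edgeR 0.0856 to 0.243), and that in bIC without any ZT4 library or replicate 2 of Ctrl ZT16 (0.0522 to 0.181).

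Outside the tubule no genotype difference of Dbp at ZT4 was called. The cKOt libraries overlapped those of Ctrl in Vasc and in podocytes, and both lay below them in Mes/Per, SMC/JGC, UT, Myel and TC/NK, at 35.4 and 15.9 CPM against 40.8 and 52.6 in SMC/JGC and at 8.77 and 13.8 against 24.2 and 21.3 in UT. Myel held 3 and 10 UMIs in Ctrl and 0 and 1 in cKOt, and TC/NK 1 and 4 against 0 and 0. Over all 20 classes, both cKOt libraries lay below those of Ctrl in 17, above them in 1 and overlapped in 2. The share of all mRNAs set apart in this way was not counted. In Vasc, the endothelium, Dbp was measured at 32.7 and 27.9 CPM in Ctrl at ZT4, 3.55 and 2.12 in Ctrl at ZT16, 11.7 and 31.9 in cKOt at ZT4 and 2.03 and 4.18 in cKOt at ZT16. The Ctrl and cKOt ranges at ZT4 overlapped, and the 4 ZT16 libraries were low. Vasc was the 1 class in which edgeR called Dbp between time points in both genotypes, with a fall of 3.38 on the log2 scale in Ctrl (SE 0.47, edgeR adjusted p = 0.00612) and of 2.83 in cKOt (SE 0.49, edgeR adjusted p = 0.0353). The second was 1 call among 6 classes tested in cKOt, against 0.0631% of class-by-mRNA tests called lower. The call in Ctrl was lost without either Ctrl ZT16 library (adjusted p of edgeR 0.0521 to 0.0953), and that in cKOt without replicate 2 of cKOt ZT4 or any ZT16 library (0.0528 to 0.491). The genotype difference of Dbp in Vasc at ZT4 was -0.42 (SE 0.35, edgeR adjusted p = 1). In podocytes, the filter cells of the glomerulus, the Dbp counts were 8 and 6 UMIs in Ctrl at ZT4 and 9 and 7 in cKOt at ZT4, with 0 and 1 in Ctrl and 2 and 1 in cKOt at ZT16, and its log2 change with time was -3.42 in Ctrl (SE 1.02, edgeR adjusted p = 0.304) and -2.43 in cKOt (SE 0.78, edgeR adjusted p = 0.495), neither called. In MD, the salt sensor of the tubule, they were 0 and 6 in Ctrl and 3 and 4 in cKOt at ZT4. In Mes/Per Dbp was measured at 12.7 and 11.2 CPM in Ctrl at ZT4, 7.07 and 6.47 in Ctrl at ZT16, 7.84 and 8.98 in cKOt at ZT4 and 5.55 and 7.11 in cKOt at ZT16. The 4 ZT4 libraries lay above the 4 ZT16 libraries, but no change was called there. PCT markers lay at 4.70% to 6.22% of their PCT level in Vasc, and the part of proximal RNA in these counts was not tested.

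Dbp was called in 0 of 6 classes tested by edgeR between genotypes at ZT16 (0.168% of class-by-mRNA tests called), with 1 at an unadjusted p under 0.05 and 0 called by DESeq2. It was called in 0 of 17 in the interaction (0.0277% called), with 5 at an unadjusted p under 0.05 and 2 called by DESeq2. The share of all class-by-mRNA tests at an unadjusted p under 0.05 was not summed. The difference of PCT from the other tubule classes was called by edgeR for 0 of 20 changes of the 4 members, with 2 at an unadjusted p under 0.05 and 0 called by DESeq2, while edgeR called 0.474% of mRNAs for the time change in Ctrl, 0.0132% for that in cKOt, 0.357% and 0.211% for the genotype difference at ZT4 and ZT16 and 0.0843% for the interaction. Those 2 were 1 over time in Ctrl and 1 by genotype at ZT4, where 1489 of 15199 and 1266 of 15142 mRNAs had such a p. Differences between single tubule classes were not tested.

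Tef changed with time in opposite directions in 2 classes of Ctrl kidneys. In TAL, the segment that reabsorbs salt without water, Tef was measured at 215 and 186 CPM in Ctrl at ZT4, 82.9 and 77.3 in Ctrl at ZT16, 98.5 and 107 in cKOt at ZT4 and 70.9 and 80.3 in cKOt at ZT16. The Ctrl ZT4 libraries were the highest, the cKOt ZT4 libraries came next, and all ZT16 libraries were below. In Mes/Per it was measured at 125 and 115 CPM in Ctrl at ZT4, 232 and 219 in Ctrl at ZT16, 100.3 and 99.7 in cKOt at ZT4 and 196 and 190.1 in cKOt at ZT16. Here the ZT16 libraries of both genotypes lay above all ZT4 libraries, and at each time Ctrl lay above cKOt. From ZT4 to ZT16 in Ctrl, Tef fell by 1.32 on the log2 scale in TAL (SE 0.13, edgeR adjusted p = 0.000115) and rose by 0.91 in Mes/Per (SE 0.14, edgeR adjusted p = 0.0266). In cKOt it rose by 0.95 in Mes/Per (SE 0.14, edgeR adjusted p = 0.024).

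These were 2 calls of Tef in 20 classes in Ctrl, against 0.328% of class-by-mRNA tests, and 1 in cKOt, against 0.128%. The TAL call held with each library left out. The Mes/Per call in Ctrl was lost without any Ctrl library or either cKOt ZT16 library (adjusted p of edgeR 0.0663 to 0.322), with a log2 value between 0.86 and 0.99, and that in cKOt without replicate 2 of cKOt ZT4 or either cKOt ZT16 library (0.101 to 0.334). Mes/Per pools clusters whose mix differed between the groups. In cKOt, cluster 3 held 477 and 301 nuclei at ZT4 and 624 and 727 at ZT16. Cluster 12 held 407 and 423 against 250 and 340, and cluster 20 held 159 and 215 against 36 and 126. In Ctrl, cluster 3 held 590 and 747 at ZT4 and 634 and 613 at ZT16. Cluster 12 held 326 and 380 there against 439 and 461, the opposite direction to cKOt. Cluster 20 held 147 and 68 in Ctrl against 99 and 181. The part of this mix in the changes was not tested. PCT markers lay at 5.55% to 7.30% of their PCT level in Mes/Per, and Tef in PCT was the higher at ZT4, at 414 and 434 CPM in Ctrl at ZT4 and 238 and 207 at ZT16. In Vasc, by contrast, Tef was 102 and 101 CPM at ZT4 and 65.8 and 66.6 at ZT16 in Ctrl, a change of -0.62 (SE 0.14, edgeR adjusted p = 0.0841) that was not called.

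By genotype at ZT4, Tef was called lower in cKOt in 3 of 20 classes, each a tubule class (0.129% of class-by-mRNA tests called lower). Its estimate was below 0 in 17 of 20, and both cKOt libraries lay below those of Ctrl in 14, among them Vasc (86.0 and 87.6 CPM against 102 and 101) and Mes/Per. The share of all mRNAs set apart in this way was not counted. Tef was 1.95-fold lower in TAL (log2 -0.96, SE 0.13, edgeR adjusted p = 0.00218), and that call held with each library left out. In PCT it was measured at 414 and 434 CPM in Ctrl at ZT4, 238 and 207 in Ctrl at ZT16, 159.6 and 213 in cKOt at ZT4 and 127 and 169 in cKOt at ZT16. Each Ctrl ZT4 library lay above every other library, and the genotype difference was -1.18 (SE 0.20, edgeR adjusted p = 0.0289), a call lost without either Ctrl ZT4 library or replicate 1 of cKOt ZT4 (adjusted p of edgeR 0.116 to 0.173). In thinDL, a class of few nuclei, Tef lay at 329.7 and 252 CPM in Ctrl and 52.8 and 77.7 in cKOt at ZT4, a 4.09-fold lower level (edgeR adjusted p = 0.00385) whose call was lost without replicate 1 of Ctrl ZT4 or replicate 2 of cKOt ZT4 (0.0651 to 0.0678), and which DESeq2 did not make.

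In DCT1/DCT2 Tef was highest in Ctrl at ZT16. It was measured at 75.2 and 105 CPM in Ctrl at ZT4, 143 and 149 in Ctrl at ZT16, 91.3 and 84.8 in cKOt at ZT4 and 64.8 and 84.3 in cKOt at ZT16. The Ctrl ZT16 libraries lay apart from all others, and the Ctrl ZT4 libraries overlapped both cKOt groups. At ZT16 Tef was 1.95-fold lower in cKOt (log2 -0.96, SE 0.18, edgeR adjusted p = 0.0298), the 1 class of 20 called for Tef at this time (0.096% of class-by-mRNA tests called lower), and the call was lost without any 1 of the 4 ZT16 libraries (adjusted p of edgeR 0.106 to 0.621). The estimate at ZT16 was below 0 in 19 of 20 classes, with 9 at an unadjusted p of edgeR under 0.05. How many of all class-by-mRNA tests reached that limit was not summed. Both cKOt libraries lay below those of Ctrl in 15, a count whose share over all mRNAs was not taken. In the whole kidney the difference of Tef at ZT16 was -0.47 (SE 0.16, edgeR adjusted p = 0.647), not called. The time change of Tef in DCT1/DCT2 of Ctrl was 0.69 (SE 0.18, edgeR adjusted p = 0.0842). Tef was called in 0 of 20 classes in the interaction by edgeR (0.0277% of class-by-mRNA tests called), with 3 at an unadjusted p under 0.05 and 0 called by DESeq2.

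Hlf, with no called change in the whole kidney, was called in 1 of 19 classes tested over time in Ctrl and in the same class, of 20 tested, between genotypes at ZT4. In DCT1/DCT2 it was measured at 23.1 and 29.6 CPM in Ctrl at ZT4, 59.02 and 61.8 in Ctrl at ZT16, 66.3 and 63.5 in cKOt at ZT4 and 57.9 and 64.99 in cKOt at ZT16. Ctrl at ZT4 was low in both libraries, and the 6 other libraries lay together above them. From ZT4 to ZT16 in Ctrl, Hlf rose by 1.19 on the log2 scale (SE 0.20, edgeR adjusted p = 0.0069, against 0.159% of class-by-mRNA tests called higher). At ZT4 it was 2.45-fold higher in cKOt (log2 1.29, SE 0.20, edgeR adjusted p = 0.0038, against 0.165%). These shares are over all classes. In DCT1/DCT2 alone, 67 of 11784 mRNAs were called higher with time in Ctrl and 17 of 11694 by genotype at ZT4. The time call was lost without replicate 1 of Ctrl ZT4 or either Ctrl ZT16 library (adjusted p of edgeR 0.0526 to 0.0963), and the genotype call without replicate 1 of Ctrl ZT4 (0.0841). PCT markers in DCT1/DCT2 were also lowest in Ctrl at ZT4, at 3.46% to 3.52% of their PCT level in Ctrl at ZT4, 5.51% to 7.01% in Ctrl at ZT16, 4.30% to 4.52% in cKOt at ZT4 and 5.06% to 6.18% in cKOt at ZT16. Hlf there lay at 7.08% to 24.2% of its own PCT level, and the part of proximal RNA in its counts was not tested. In bIC Hlf was likewise lowest in Ctrl at ZT4, at 11.04 and 11.8 CPM in Ctrl at ZT4, 47.2 and 32.97 in Ctrl at ZT16, 21.01 and 36.3 in cKOt at ZT4 and 24.9 and 20.8 in cKOt at ZT16, where neither its time change (1.82, SE 0.46, edgeR adjusted p = 0.446) nor its genotype difference at ZT4 (1.31, SE 0.48, edgeR adjusted p = 0.585) was called. PCT markers in bIC lay at 3.68% to 4.52% of their PCT level in Ctrl at ZT4 and 4.86% to 8.70% in Ctrl at ZT16. Hlf over all libraries lay at 3.38% to 12.9% of its own PCT level, a range that overlaps both, and the part of proximal RNA in its bIC counts was not tested.

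In the proximal classes, where Hlf was highest, no change was called. In PCT it was measured at 327 and 333 CPM in Ctrl at ZT4, 367 and 256 in Ctrl at ZT16, 338 and 349 in cKOt at ZT4 and 339 and 312 in cKOt at ZT16. Levels in Ctrl at ZT4 lay just below the cKOt ZT4 libraries, and the other groups overlapped. By edgeR, Hlf was called in 0 of 19 classes over time in cKOt, 0 of 19 between genotypes at ZT16 and 0 of 20 in the interaction, with 3, 2 and 3 classes at an unadjusted p under 0.05, and DESeq2 called 0, 0 and 0. Of all class-by-mRNA tests, edgeR called 0.128%, 0.168% and 0.0277% in these contrasts, and the share at an unadjusted p under 0.05 was not summed.

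**Figure D4:**
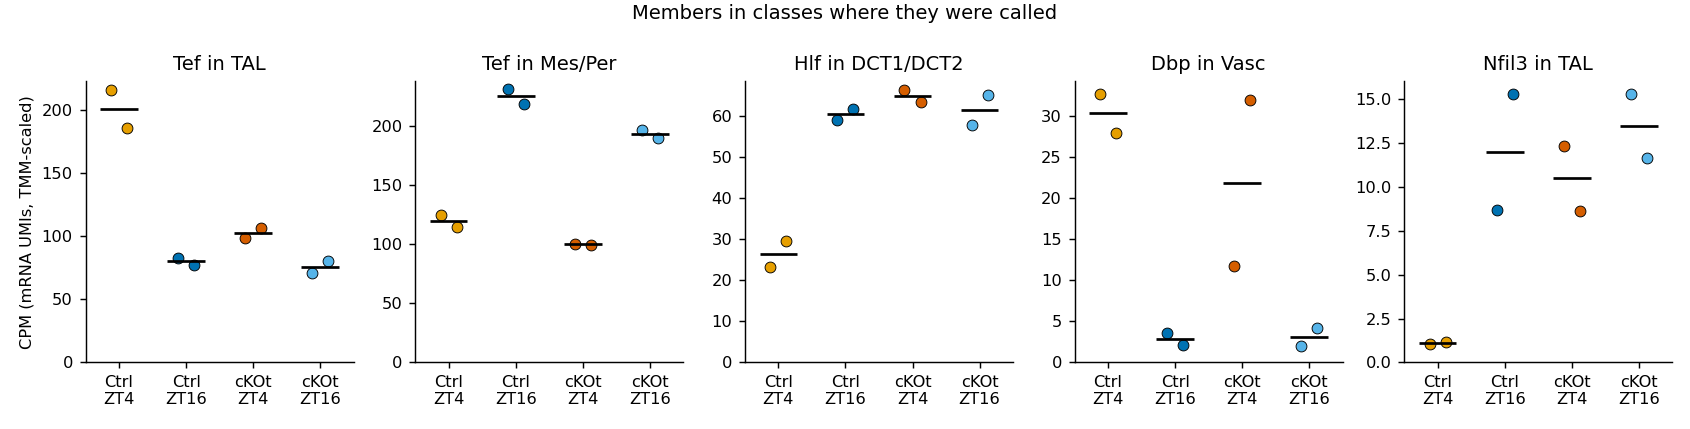
Levels by library for 5 pairs of a member and a class on which the results turn, in CPM on a linear axis, with 1 point per library and a bar at the mean of each group. Tef at ZT16 is below ZT4 in TAL and above it in Mes/Per, Hlf in DCT1/DCT2 is low in Ctrl at ZT4 alone, and Dbp in Vasc reaches 31.9 CPM in a cKOt ZT4 library.

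From ZT4 to ZT16 in Ctrl, Nfil3 was called higher in 1 of the 9 classes with enough counts, TAL, against 0.159% of class-by-mRNA tests called higher. By genotype at ZT4 it was called higher in cKOt in 2 of 9, TAL and PCT (0.165% called higher). In TAL it was measured at 1.03 and 1.14 CPM in Ctrl at ZT4, 8.70 and 15.3 in Ctrl at ZT16, 12.3 and 8.63 in cKOt at ZT4 and 15.3 and 11.7 in cKOt at ZT16, from 3 and 6 UMIs in Ctrl at ZT4 and 57 and 71 at ZT16. The Ctrl ZT4 libraries were the lowest by a wide margin, and the other groups overlapped. In TAL Nfil3 rose by 3.39 on the log2 scale with time in Ctrl (SE 0.47, edgeR adjusted p = 0.00171), a call that held with each library left out. At ZT4 it was 9.21-fold higher in cKOt there (SE 0.49 on the log2 scale, edgeR adjusted p = 0.00418), a call lost without replicate 2 of Ctrl ZT4 (adjusted p = 0.1).

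In PCT Nfil3 was measured at 3.03 and 1.56 CPM in Ctrl at ZT4, 11.3 and 40.95 in Ctrl at ZT16, 41.5 and 22.9 in cKOt at ZT4 and 30.3 and 46.4 in cKOt at ZT16. Again Ctrl at ZT4 was apart and lowest, and the Ctrl ZT16 libraries differed more from each other than those of any other group. At ZT4 Nfil3 was 13.9-fold higher in cKOt (log2 3.80, SE 0.66, edgeR adjusted p = 0.0368), a call lost without either Ctrl ZT4 library, replicate 1 of cKOt ZT4 or either cKOt ZT16 library (adjusted p of edgeR 0.0551 to 0.283). The time change in Ctrl was 3.45 (SE 0.67, edgeR adjusted p = 0.0646). In PCT/PST the levels were 3.13 and 1.98 CPM in Ctrl at ZT4, 7.88 and 39.4 in Ctrl at ZT16, 48.7 and 15.8 in cKOt at ZT4 and 29.2 and 42.2 in cKOt at ZT16. The Ctrl ZT4 libraries were the lowest there too, and the clusters that hold these classes are those given for Dbp.

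Outside the tubule, Nfil3 in Vasc was measured at 2.39 and 2.41 CPM in Ctrl at ZT4, 9.55 and 10.3 in Ctrl at ZT16, 7.42 and 3.82 in cKOt at ZT4 and 11.5 and 7.39 in cKOt at ZT16, and in Mes/Per at 1.95 and 2.18 CPM in Ctrl at ZT4, 7.07 and 7.23 in Ctrl at ZT16, 8.36 and 3.59 in cKOt at ZT4 and 3.33 and 5.99 in cKOt at ZT16. In both classes the Ctrl ZT4 libraries were the lowest, and no change was called. Over all 9 classes tested, the log2 change of Nfil3 with time in Ctrl lay between 1.14 and 3.45, and its genotype difference at ZT4 between 0.99 and 3.80, above 0 in each. A class entered these tests through the group in which Nfil3 is high, so these ranges do not describe the classes left out. By edgeR, Nfil3 was called in 0 of 10 classes over time in cKOt, 0 of 10 between genotypes at ZT16 and 0 of 10 in the interaction, with 0, 0 and 4 classes at an unadjusted p under 0.05 and 0, 0 and 0 called by DESeq2. The shares of all class-by-mRNA tests called by edgeR were 0.128%, 0.168% and 0.0277%, and those at an unadjusted p under 0.05 were not summed.

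**Figure D5:**
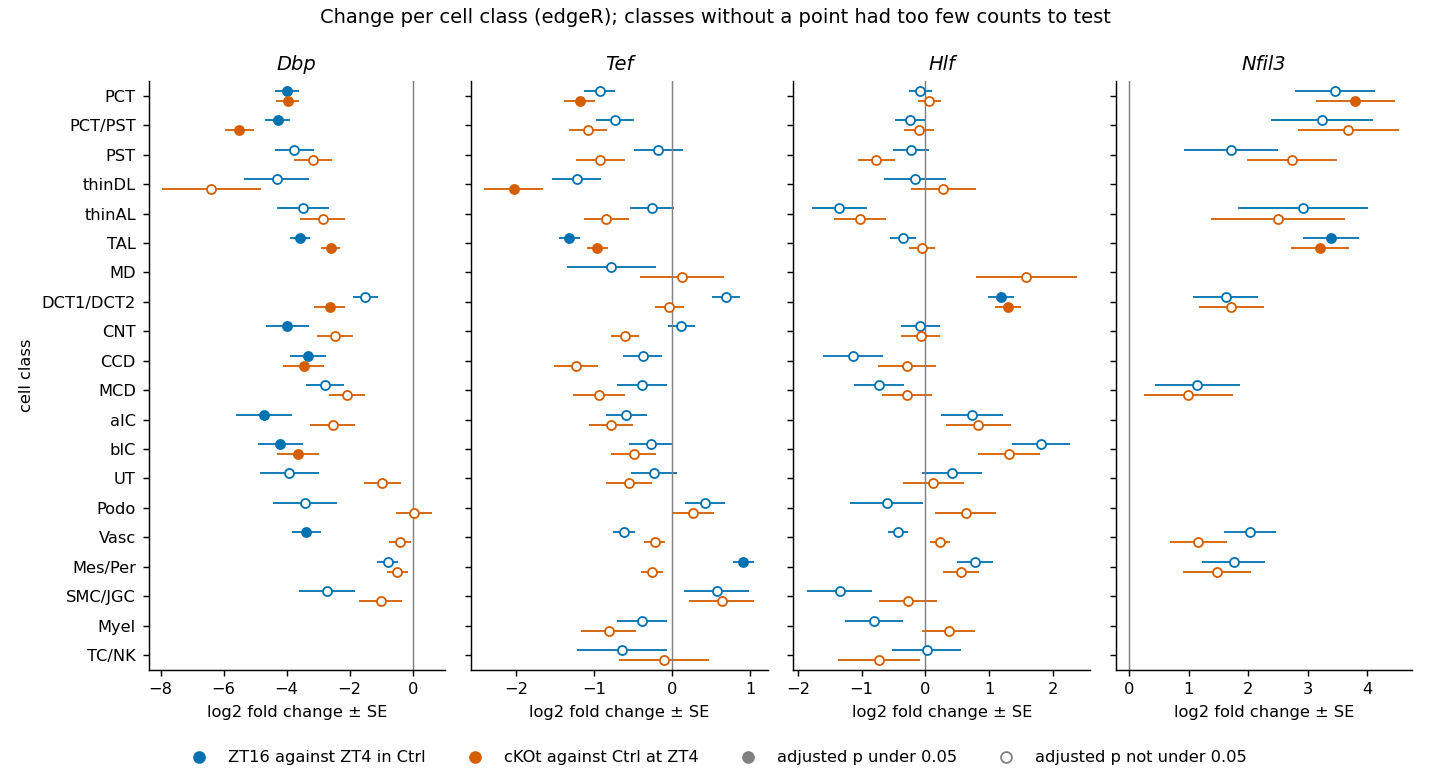
Log2 change of each member by class, from ZT4 to ZT16 in Ctrl (blue) and in cKOt against Ctrl at ZT4 (orange), as estimates of edgeR with bars of 1 SE, filled where the adjusted p is under 0.05. Estimates of Dbp with time lie below 0 and those of Nfil3 above 0 in the classes tested, which pass the count filter mainly through the group where the gene is high, and those of Tef fall on both sides of 0.

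The genes that act on the members' promoters were tested in the same sums. Of 12 activators and repressors, all tested in the whole kidney, 4 were called higher and 2 lower from ZT4 to ZT16 in Ctrl, with 0.142% of all mRNAs called (list median 0.32 on the log2 scale, -0.00318 over all mRNAs tested). Among those that rose were Arntl (log2 2.13), which encodes BMAL1, Npas2 (2.10), a partner of BMAL1, and Cry1 (2.71), which represses BMAL1-driven transcription. Those that fell were the repressors at ROR response elements, Nr1d1 (-4.16) and Nr1d2 (-1.88). By genotype at ZT4, Npas2, Cry1 and Arntl were among those higher in cKOt (log2 3.97, 2.997 and 2.80) and 1 gene of the list was lower, with 0.446% of all mRNAs called (list median 0.54, 0.00281 over all mRNAs). At ZT16 1 was higher, Npas2 (1.88), and 1 lower, Nr1d2 (-1.34), with 0.174% called. Between time points in cKOt 0 of the 12 were called by edgeR (3 at an unadjusted p under 0.05, 2 by DESeq2), and in the interaction 2 were lower, Npas2 (-2.09) and Cry1 (-2.45), with 0.0183% of all mRNAs called. Of all mRNAs, 1337 of 16069 had an unadjusted p of edgeR under 0.05 over time in cKOt.

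In other cells, 2 of the list rose (among them Cry1, log2 1.86) and 2 fell (Nr1d1, -3.50, and Nr1d2, -1.25) with time in Ctrl (0.069% of mRNAs called), and in cKOt 1 rose (Cry1, 1.53) and 2 fell (Nr1d1, -4.30, and Nr1d2, -1.66), with 0.0842% called. Arntl in other cells lay at 78.5 and 75.7 CPM in Ctrl and 130.4 and 84.2 CPM in cKOt at ZT4, whereas in the tubule it lay at 27.7 and 21.2 CPM in Ctrl and 326 and 228 CPM in cKOt at ZT4.

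Among 9 clock genes described to carry D-boxes, a list that shares 8 genes with the one above, 2 rose and 2 fell with time in Ctrl (list median -0.25, 0.142% of all mRNAs called), 0 were called in cKOt by edgeR (3 at an unadjusted p under 0.05, 2 by DESeq2), and at ZT4 2 were higher (among them Cry1) and 2 lower in cKOt (Nr1d2, log2 -1.79, and Per3, -1.63, list median -0.36, 0.446% of all mRNAs called). At ZT16 0 were higher and 1 lower (0.174% called), and in the interaction 0 and 1 (0.0183% called). Of 12 genes described elsewhere as targets of PAR factors or NFIL3, 9 could be tested. None was called by edgeR between time points, with 2 at an unadjusted p under 0.05 and 1 called by DESeq2 in Ctrl and 1 and 0 in cKOt, while at ZT4 2 were lower in cKOt, Cyp2a5 (log2 -4.62) and Cyp2a4 (-3.27), and 1 higher, Ddc (2.05), which makes dopamine in the proximal tubule, with 0.446% of all mRNAs called. The same 3 genes were called at ZT16 (0.174% called), Cyp2a5 at -3.97, Cyp2a4 at -2.78 and Ddc at 1.12. Cyp2a4 and Cyp2a5 encode near-identical cytochrome P450 enzymes between which reads may be split, so their separate values are uncertain. The median of this list at ZT4 was -0.55, beside 0.00281 over all mRNAs. Over time, 1609 of 16165 mRNAs in Ctrl and 1337 of 16069 in cKOt had an unadjusted p of edgeR under 0.05. Of 5 C/EBP genes, related bZIP factors that bind similar sequences, 4 were tested and 0 were called by edgeR in any contrast, with 0 at an unadjusted p under 0.05 and 0 called by DESeq2.

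The mRNAs whose levels followed those of a member were listed by Pearson's r of log2(CPM + 1), over the 160 class-by-library sums after each class mean was subtracted, among 10273 mRNAs. The 160 points share 8 libraries, so that r describes these libraries and carries no test. For Dbp the 5 highest were Nr1d2 (0.756), Nr1d1 (0.714), Tef (0.570), Per3 (0.560) and Ccdc148 (0.545). For Tef they were Nr1d2 (0.682), Per3 (0.654), Dbp (0.570), Sord (0.516) and Slc22a5 (0.516), and for Nfil3 Rhobtb1 (0.615), Cry1 (0.561), Arntl (0.559), Npas2 (0.531) and Atp2a2 (0.527). For Hlf the values were lower, with Ehd3 (0.433), Cldn2 (0.401), Zyx (0.369), C87436 (0.351) and Smcr8 (0.349). Between members r was 0.570 for Dbp and Tef, -0.551 for Dbp and Nfil3 and -0.421 for Tef and Nfil3.

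Across the 20 class means of Ctrl, which share the same libraries, the genes most like Hlf were Sfxn1 (0.947), Anks4b (0.902), Lpin1 (0.900), Fam126b (0.895) and Lrp2 (0.895). For Tef they were Zbtb20 (0.879), Tulp3 (0.878), Snx7 (0.877), Dhtkd1 (0.877) and Glb1l (0.876), for Nfil3 Wipi2 (0.803), Atraid (0.785), Rab23 (0.782), Dnajc19 (0.771) and Nploc4 (0.746) and for Dbp Pitpnm2 (0.684), Lrrc39 (0.672), Clpp (0.667), Tmem136 (0.657) and Acaa2 (0.652). The level of Tef across classes had an r of 0.740 with that of Hlf and 0.168 with that of Dbp.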

How the data were processed

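Per the labels and the submitters' processing notes, the authors demultiplexed reads with bcl2fastq 2.20, aligned and counted them with Cell Ranger 7.1.0 and used Seurat 5 downstream. They deposited raw UMI counts per gene and called barcode for each of 8 libraries, without normalization or pooling. The notes name GRCm39 and the methods an mm10 reference, so genes were joined by Ensembl identifier and no coordinates of the files were used. Loci are from GENCODE on GRCm39 and promoters from RefSeq on GRCm38.p6, and the builds were not mixed.

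Of 82784 barcodes, the 81391 with no fewer than 500 genes and 800 UMIs and a mitochondrial share of up to 2% were analysed. Doublets, 5.48% by Scrublet in scanpy 1.11.5, were kept and removed as an alternative. Nuclei were clustered on 2000 variable mRNAs without the members and other clock genes (1000 principal components, 20 neighbours, resolution 2.2). Clusters were named from listed markers by a rule that was chosen with the clusters in view. A name needed 20 nuclei, no more than 50% doublets, an average marker z score from 1.2 up, and 3 markers that were found in 5% of the cluster and lay 2-fold above other nuclei. This named 32 of 39 clusters, with 94.9% of nuclei, and the others entered the whole-kidney sums alone. DCT1 and DCT2 were not separated, and clusters with 3 of the 4 PST markers were called PCT/PST. A class was compared when every library had at least 10 of its nuclei.

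Counts were summed per library and unit, 30119827 to 45245488 mRNA UMIs per library for the whole kidney. These sums were tested with edgeR 4.0.16 (TMM, quasi-likelihood) in R 4.3.3, in 1 model of the 4 groups, over mRNAs that reached 5 counts in each library of 1 or more of the groups compared. Adjustment was by Benjamini-Hochberg over all mRNAs of a unit and contrast, with a limit of 0.05. Compartments were compared in 16 sums with the library as a block. DESeq2 1.42.0 was the other tool. The pipeline was tested on simulated data. Replicates, 2 per group, are mice by the methods and differed by far more than sampling noise, with a chi-square of 35.0 to 61.6 per degree of freedom. The deviations of libraries with the same replicate number had correlations of both signs over all pairs of groups (-0.276 to 0.449 in the whole kidney). Between genotypes at the same time point they were positive, at 0.448 for ZT4 and 0.449 for ZT16, and also in PCT, TAL and Vasc. The negative values were between time points. The labels name no pairs, so the numbers were used as a block in an alternative alone.

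Named genes were the members, at most 4 called genes of each of 4 lists per contrast with the smallest p, Arntl, and the 5 mRNAs most like each member, with a mean of at least 10 CPM. The members, the lists and the tests were chosen with earlier results of these data known. Alternatives were DESeq2, its size factors, no count filter, all biotypes, doublets removed, 50 principal components, a replicate block, each library left out and, added later, adipocyte-like nuclei left out. The values of 1 gene of the lists are not reported here.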

Additional observations from a re-analysis of the deposited data

Results flagged for a closer look

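The difference between the tubule and other cells in a shared contrast was called for 2 changes of the members. The genotype difference of Dbp at ZT4 was -3.03 on the log2 scale in the tubule relative to other cells, the cKOt libraries lying at 2.06 and 3.25 CPM in the tubule and at 10.98 and 21.6 CPM in other cells. The time change of Tef in Ctrl was -1.02 in the tubule relative to other cells. Both Ctrl ZT16 libraries lay below the Ctrl ZT4 libraries in the tubule and above them in other cells. Both differences were tested in 1 edgeR model with the library as a block.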

How the results depend on the processing

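No called value of the members changed direction under the alternatives run for it. With 50 principal components 3 of 27 called class changes had no value, the compartments were not fitted with the block, and adipocyte-like nuclei were left out of the whole kidney alone. With 50 principal components no cluster was named PCT/PST. Clusters 29 and 32, with 3 PST markers raised, were unnamed, and 1045 of 1065 and 990 of 998 of their nuclei came from a single library each. Unnamed nuclei were outside the tubule sums, so these comparisons held other nuclei than the main ones. In the whole kidney, DESeq2 also called the time change of Nfil3 in Ctrl (2.72), of Dbp in cKOt (-1.31), the genotype difference of Tef at ZT4 (-0.87) and the interaction of Dbp (2.18), and without the count filter edgeR called Nfil3 in Ctrl (2.71) and Tef at ZT4 (-0.88). Over all mRNAs of the whole kidney DESeq2 called 233 over time in Ctrl against 23 by edgeR, 164 against 0 over time in cKOt, 349 against 72 by genotype at ZT4, 171 against 28 at ZT16 and 48 against 3 in the interaction, so its added calls of members stand against a larger background. The genotype call of Nfil3 at ZT4 was lost with the size factors of DESeq2 (3.22) and with the replicate number as a block (3.22). Under the block 15 mRNAs of the whole kidney were called over time in Ctrl, 53 by genotype at ZT4 and 30 at ZT16, Dbp was called in 0 classes over time in cKOt and Nfil3 in 1 at ZT4, no other call in the whole kidney changed and no other count of classes moved by over 1.5 times. The labels do not say that same-numbered libraries are paired. Between tubule and other cells, edgeR without the filter called Dbp over time in Ctrl (-1.38), the call of Tef over time was lost with size factors (-1.03) and 50 principal components (-1.10), and DESeq2, no filter and all biotypes called Tef at ZT4 (-0.84, -0.82 and -0.81) and the interaction of Dbp (2.64, 2.63 and 2.63), as DESeq2 did Nfil3 at ZT4 (2.04). With 50 principal components, PCT against other tubule classes moved to -0.89 (Dbp), -0.60 (Tef) and 0.11 (Hlf) over time in Ctrl, -1.36 (Dbp), -0.37 (Tef) and 1.44 (Nfil3) at ZT4, -0.93 (Dbp), 0.12 (Tef), 0.34 (Hlf) and 0.33 (Nfil3) at ZT16, and 0.49 (Tef) and 0.044 (Hlf) in the interaction.

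The number of classes called over time in Ctrl was 5 for Dbp and 2 for Nfil3 with DESeq2, 5 for Tef, 2 for Hlf and 6 for Nfil3 without the filter, and 2 for Nfil3 with 50 principal components. At ZT4 it was 4 for Nfil3 with DESeq2 and 6 for Tef, 2 for Hlf and 5 for Nfil3 without the filter. At ZT16 it was 2 for Tef without the filter and 2 with 50 principal components, and 1 for Hlf without the filter. In the interaction it was 2 for Dbp with DESeq2 and, without the filter, 3 for Dbp, 1 for Tef, 1 for Hlf and 2 for Nfil3. The filter changes how many mRNAs are adjusted for, and 50 principal components change which nuclei the sums hold. The causes of the other changes were not tested. With each library left out, the log2 values in the whole kidney ranged over Dbp -3.72 to -3.28, Hlf -0.54 to 0.11 and Nfil3 1.84 to 3.27 (time in Ctrl), Dbp -1.68 to -0.77, Tef -0.38 to 0.039 and Nfil3 -0.34 to 0.82 (time in cKOt), Dbp -2.97 to -2.07, Tef -1.10 to -0.68 and Nfil3 2.51 to 3.69 (genotype at ZT4), Hlf -0.19 to 0.47 and Nfil3 0.076 to 1.49 (genotype at ZT16), Dbp 1.80 to 2.71, Hlf -0.30 to 0.36 and Nfil3 -3.14 to -1.72 (genotype by time). The log2 values between tubule and other cells ranged over Tef -1.11 to -0.94, Hlf -0.74 to -0.092 and Nfil3 0.31 to 1.64 (time in Ctrl), Dbp 0.97 to 1.56 and Tef -0.85 to -0.30 (time in cKOt), Tef -1.11 to -0.56 and Nfil3 1.38 to 2.61 (genotype at ZT4), Hlf -0.17 to 0.48 and Nfil3 0.36 to 1.70 (genotype at ZT16), Tef 0.17 to 0.72, Hlf 0.12 to 0.77 and Nfil3 -1.71 to -0.38 (genotype by time). The log2 values between PCT and other tubule classes ranged over Dbp -0.65 to -0.068 (time in Ctrl), Dbp -0.39 to 0.42, Tef -0.28 to -0.0062 and Nfil3 -0.36 to 0.29 (time in cKOt), Dbp -1.20 to -0.38 (genotype at ZT4), Tef -0.16 to 0.12 and Nfil3 -0.24 to 0.33 (genotype at ZT16). The number of classes called ranged over Dbp 3 to 9, Tef 1 to 3, Hlf 0 to 1 and Nfil3 1 to 3 (time in Ctrl), Dbp 0 to 1 and Tef 0 to 1 (time in cKOt), Dbp 3 to 7, Tef 1 to 4, Hlf 0 to 1 and Nfil3 0 to 3 (genotype at ZT4), Tef 0 to 1 (genotype at ZT16), Nfil3 0 to 1 (genotype by time). Of the leave-one-out values for members called in a class, 61 fell short of the limit and 155 stayed past it. With 2 libraries per group and few UMIs of Dbp and Nfil3 in small classes, a change that was not called there was not shown to be absent. Removing doublets or, chosen after seeing the data, adipocyte-like nuclei changed no call in the whole kidney. Without doublets the calls of Dbp in DCT1/DCT2 at ZT4 and in bIC over time in Ctrl were lost.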

Other observations

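Adipocyte-like nuclei, named from their markers, numbered 1 and 2 in the Ctrl ZT4 libraries, 25 and 41 in cKOt ZT4, 5 and 0 in Ctrl ZT16 and 2 and 0 in cKOt ZT16. They were too few to be compared as a class.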
